A study of Mus musculus with 11 samples.

Results

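The genes described here are the 10 rows of a liver expression table named H2-K1, H2-D1, B2m, Tap1, Tap2, Tapbp, Psmb8, Psmb9, Psmb10 and Ubd, picked by gene name out of 31280 rows. Together they cover MHC class I presentation, the immunoproteasome and the ubiquitin-like modifier FAT10. Livers came from wild-type C57BL/6 mice that all received an MCD (methionine- and choline-deficient) diet for 8 weeks, a diet used as a mouse model of steatohepatitis. In the limonin group, 6 mice were also given limonin, a citrus triterpenoid, by the intragastric route at 100 mg/kg for 4 weeks. In the MCD group, 5 mice were given water. Each library is 1 mouse, and the sources used here give neither age nor sex. No livers of mice fed a complete diet were used here, and each difference is thus limonin against water under 1 deficient diet. Values are FPKM, fragments scaled to transcript length and library depth, and all 10 genes were above 1 FPKM in all 11 libraries. Low products of FPKM and transcript length gave an implied 15510000 to 19630000 fragments per library. Whole liver was sequenced, so fewer cells of a type and less RNA per cell cannot be told apart.

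Class I molecules show peptides of the cell's own proteins to CD8 T cells. The proteasome cuts the proteins, the TAP transporter moves the peptides into the endoplasmic reticulum, tapasin holds empty class I molecules at the transporter, and heavy chain, beta-2-microglobulin and peptide then leave for the cell surface. Interferon gamma and TNF raise transcription of this pathway and replace the catalytic subunits of the standard proteasome by those of the immunoproteasome. They also induce Ubd, whose protein marks others for the proteasome and which is a marker of inflamed, regenerating and steatohepatitic liver.

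Most of the 10 genes were lower in limonin livers, with the largest log2 fold change for Ubd and the smallest for H2-K1 and B2m. Of the 10, 8 fell in limma at a threshold of 0.05 after Benjamini-Hochberg adjustment over all genes tested, and 0 rose. H2-K1 and B2m were not called, although all 10 had an unadjusted p under 0.05. Over all 10489 tested genes, 25.9% were called in either direction, 18.7% were called lower and 759 genes were called higher. The median log2 fold change of the 10 genes was -0.59, with a range of -1.99 to -0.35, against -0.07 over all genes tested. The count rested on single libraries. It was 4 of 10 without MCD 1, where 1294 of 10275 tested genes were called lower, and 5 without limonin 2, where 1434 of 10417 were. Without MCD 2 it was 1 (Psmb8), where 9.68% of all genes were called lower. Over all genes called, 27.9% were higher in the unscaled FPKM, against 42.4% with median-ratio scaling, 52.9% with quantile normalization and 49.5% at equal summed FPKM. With these 3 scalings, in that order, 6, 7 and 5 of the 10 genes were called, and all 10 kept a log2 fold change below 0. The genes called lower among all tested were then 1748 of 10477, 1614 of 10489 and 1116 of 10479.

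**Figure D1:**
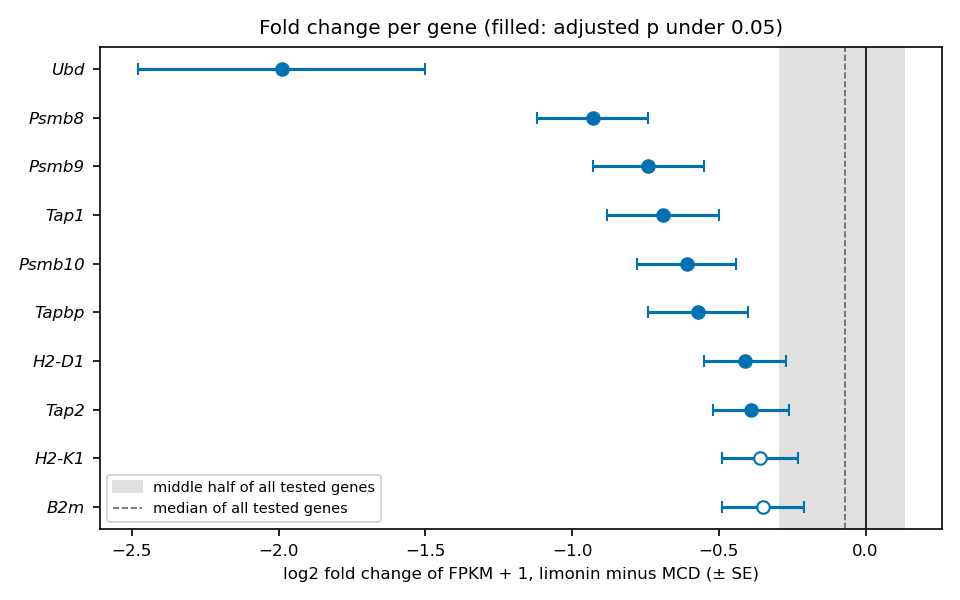
Log2 fold change of FPKM + 1 (limonin minus MCD, horizontal axis, bars ± SE) for each of the 10 genes, with filled points at an adjusted p under 0.05. All 10 lie left of the median of all tested genes (-0.07, dashed), from -1.99 for Ubd to -0.35 for B2m, and the grey band spans the quartiles of all tested genes (-0.29 to 0.13).

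The class I chains were the most abundant members by FPKM, and 1 of the 3 was called lower. Their log2 fold changes were close, from -0.41 to -0.35, each with an unadjusted p under 0.05 (limma). H2-K1, which encodes the classical heavy chain H-2K (chromosome 17, 33996017 to 34000347, GRCm38), had 355, 278, 418, 330, 419 and 387 FPKM in limonin livers 1 to 6, against 484, 585, 426, 407 and 434 FPKM in MCD livers 1 to 5. In 4 of 6 limonin livers it lay below every MCD liver, and limonin 3 and 5 lay above MCD 4. The log2 fold change of -0.36 ± 0.13 (SE) was not called, with an adjusted p of 0.0593 (limma). H2-D1, the other classical heavy chain (chromosome 17, 35262730 to 35267499), averaged 335 ± 36.4 FPKM in limonin livers (SD, n = 6) and 451 ± 94.1 FPKM in MCD livers (SD, n = 5). It fell by 0.41 ± 0.14 on the log2 scale with an adjusted p of 0.0432. That call held in only 4 of the 11 fits that left out 1 library, those without limonin 3, limonin 5, MCD 3 or MCD 4 (largest adjusted p 0.131). H2-K1, H2-D1 and the H2-Q genes are close copies of each other, and the sources used here do not say how fragments shared between them were divided, so their single values are uncertain.

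B2m encodes beta-2-microglobulin, the light chain that pairs with class I heavy chains (chromosome 2, 122147686 to 122153083). Its FPKM ran from 1162 to 1936 with a median of 1714 in limonin livers, against 2073, 2442, 2075, 1824 and 2026 FPKM in MCD livers. Apart from limonin 5, every limonin liver was below every MCD liver. The mean was 20.7% lower, a log2 fold change of -0.35 ± 0.14 that was not called (adjusted p = 0.0755). After quantile normalization it was -0.13. The ratio of B2m to the summed FPKM of H2-K1 and H2-D1 ran from 1.97 to 2.89 in limonin livers and from 2.1 to 2.58 in MCD livers, so light and heavy chain transcripts stood in overlapping proportions in both groups.

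The promoters of these chains are shown because class I genes are known to answer NF-kappaB and interferon through sites close to their start. Each window runs from 250 bases before to 50 bases after the RefSeq start site (GRCm38.p6), printed along the gene's strand. Capitals mark matches to the kappaB site, the ISRE core GAAANNGAAA (bound by interferon regulatory factors), the STAT site TTCNNNGAA and the CCAAT box, all searched on both strands. The windows are chr17:34000298-34000597 (minus strand) for H2-K1, chr17:35262844-35263143 (plus) for H2-D1 and chr2:122147437-122147736 (plus) for B2m.
H2-K1: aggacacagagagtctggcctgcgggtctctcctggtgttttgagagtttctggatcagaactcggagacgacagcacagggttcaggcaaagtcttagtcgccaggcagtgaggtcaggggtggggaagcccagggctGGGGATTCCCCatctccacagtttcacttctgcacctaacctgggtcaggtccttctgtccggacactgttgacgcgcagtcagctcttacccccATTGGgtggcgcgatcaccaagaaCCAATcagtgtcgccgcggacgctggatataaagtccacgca
H2-D1: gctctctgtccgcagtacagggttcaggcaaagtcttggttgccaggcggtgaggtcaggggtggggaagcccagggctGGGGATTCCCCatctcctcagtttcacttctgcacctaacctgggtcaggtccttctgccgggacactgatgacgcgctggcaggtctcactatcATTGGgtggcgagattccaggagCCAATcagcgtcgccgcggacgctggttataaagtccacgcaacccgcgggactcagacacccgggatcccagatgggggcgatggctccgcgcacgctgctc
B2m: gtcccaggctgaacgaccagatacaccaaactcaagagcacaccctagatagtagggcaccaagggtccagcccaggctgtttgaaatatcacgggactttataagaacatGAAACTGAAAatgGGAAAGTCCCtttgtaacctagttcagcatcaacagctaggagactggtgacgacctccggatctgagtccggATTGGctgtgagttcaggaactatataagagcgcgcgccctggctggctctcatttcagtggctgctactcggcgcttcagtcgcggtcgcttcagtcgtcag
H2-K1 and H2-D1 each hold a pair of overlapping kappaB matches, which begin at positions -111 and -110 in H2-K1 and at -171 and -170 in H2-D1, with 2 CCAAT boxes downstream of them. H2-K1 has a second RefSeq start, not printed, whose window (chr17:34000284-34000583) puts the same matches at -125 and -124. B2m holds an ISRE core match at -139, a kappaB match at -126 and a CCAAT box at -53. Of all 32851 promoter windows, 8.46% hold a kappaB match, 3.44% an ISRE core match, 8.3% the STAT site and 37.4% a CCAAT box. A match is only a match of letters, and a site spelled otherwise was not marked.

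**Figure D2:**
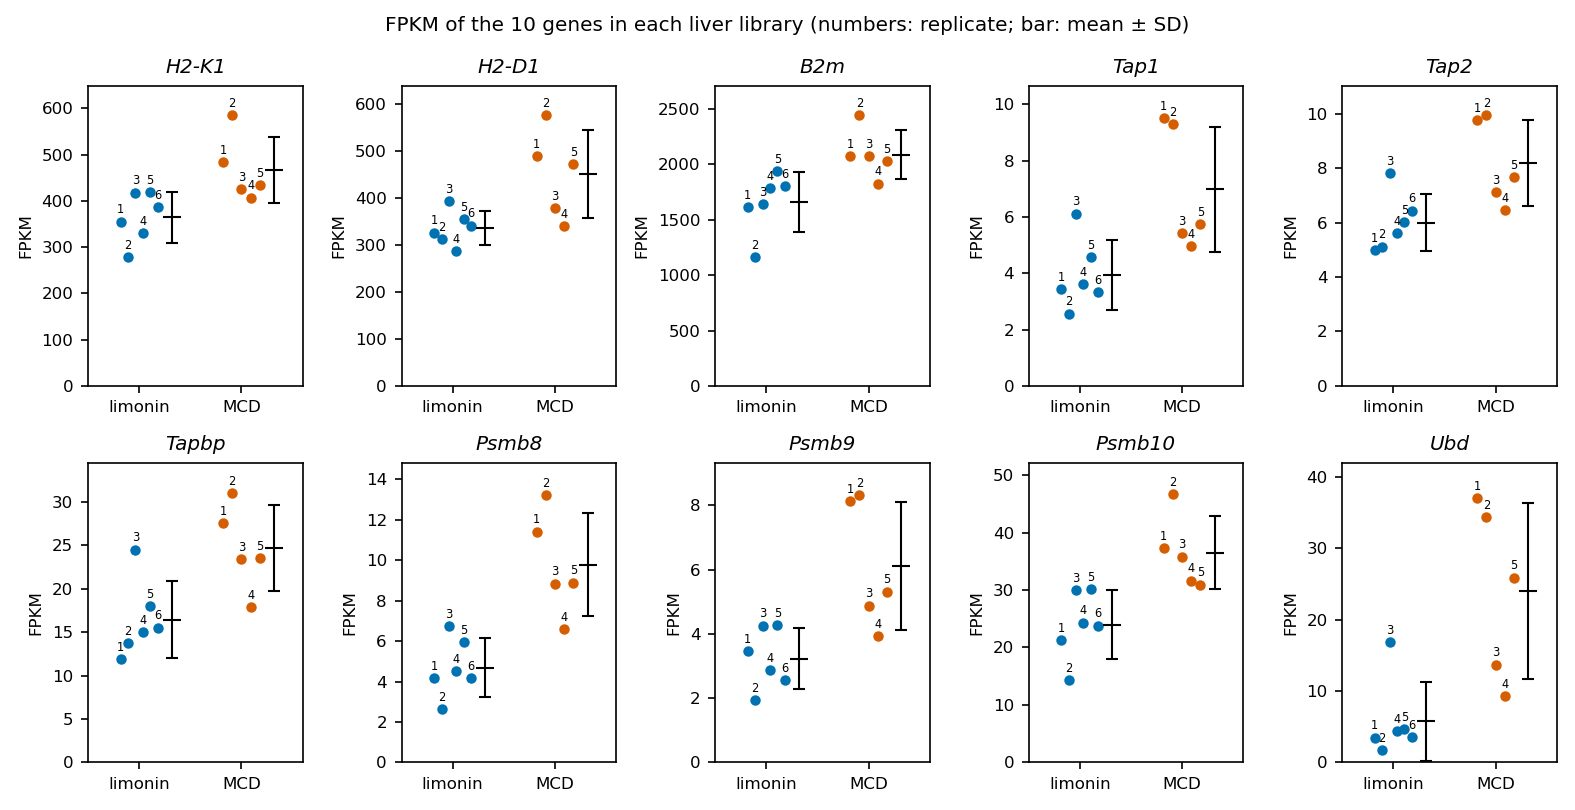
FPKM (vertical axes, from 0) of each gene in the 6 limonin and 5 MCD libraries, 1 point per mouse with its replicate number, and mean ± SD as bars. MCD 1 and 2 are the 2 highest libraries of every panel except B2m, where MCD 3 is above MCD 1, and limonin 3 lies apart from the other limonin livers in the Ubd panel (16.9 FPKM).

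All 3 genes of peptide transport and loading fell. Tap1, the first subunit of the transporter (chromosome 17, 34187553 to 34197225), had 3.44, 2.57, 6.11, 3.61, 4.56 and 3.32 FPKM in limonin livers 1 to 6, against 9.51, 9.28, 5.43, 4.97 and 5.74 FPKM in MCD livers 1 to 5. All limonin livers except limonin 3 were below every MCD liver. Its log2 fold change was -0.69 ± 0.19 with an adjusted p of 0.0206 (limma), lost without MCD 1 (0.0553) or MCD 2 (0.0663). Tap2, the partner subunit (chromosome 17, 34203527 to 34216321), averaged 6.0 ± 1.04 FPKM in limonin livers and 8.19 ± 1.58 FPKM in MCD livers (SD, n = 6 and 5). It fell by 0.39 ± 0.13 (adjusted p = 0.0419), but only the fits without limonin 3, MCD 3 or MCD 4 kept the call (largest adjusted p 0.123). Tapbp, which encodes tapasin (chromosome 17, 33915899 to 33929292), ran from 11.9 to 24.5 FPKM with a median of 15.2 in limonin livers and from 17.9 to 31.0 FPKM with a median of 23.5 in MCD livers. It fell by 0.57 ± 0.17 (adjusted p = 0.0254), and this call was lost without MCD 1, MCD 2 or limonin 2 (largest adjusted p 0.0789).

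Of 9 other tested genes of peptide loading and trimming, 0 were called in limma (1, higher, at an unadjusted p under 0.05). The other scalings called 1 or 2 of them, all higher, while 1095 to 1813 of all tested genes were called higher, against 759 unscaled. The list had a median log2 fold change of 0.07 and a range of -0.09 to 0.23. Among them, Calr, the chaperone calreticulin, averaged 181 ± 26.8 FPKM in limonin livers and 177 ± 24.3 FPKM in MCD livers. Pdia3, the thiol oxidoreductase of the loading complex, had a log2 fold change of -0.02 ± 0.12, and Erap1, the aminopeptidase that trims peptides, one of 0.16 ± 0.11. These 3 were chosen after their values were seen.

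Tap1 and Psmb9 lie head to head, and their promoter windows share 275 bases. The window of Tap1 (chr17:34187306-34187605, plus strand, GRCm38.p6) therefore also shows most of that of Psmb9, read from the opposite strand. Both genes fell, so the stretch is printed once, with the same motifs in capitals.
Tap1: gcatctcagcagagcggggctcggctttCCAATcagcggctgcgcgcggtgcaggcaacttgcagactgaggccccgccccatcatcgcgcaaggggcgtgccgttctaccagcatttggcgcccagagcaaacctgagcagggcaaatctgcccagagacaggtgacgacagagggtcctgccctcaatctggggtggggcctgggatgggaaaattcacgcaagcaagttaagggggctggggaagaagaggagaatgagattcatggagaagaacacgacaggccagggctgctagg
It holds a CCAAT box and no match to the kappaB site, the ISRE core or the STAT site as spelled here. Psmb8, the next gene downstream, holds a STAT site match at -97 of its own window, Tapbp holds 2 CCAAT boxes and Psmb10 none of the 4 motifs. With the motifs as spelled here, 4 of the 9 members with a window hold a kappaB match, 1 an ISRE core match, 1 a STAT site and 7 a CCAAT box. Sites spelled otherwise are not in these counts. Tap2 is the member with no window in the table used.

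All 3 immunoproteasome subunits fell. Psmb8, the beta5i (LMP7) subunit that cleaves after hydrophobic residues (chromosome 17, 34197721 to 34201454), had 4.18, 2.63, 6.72, 4.5, 5.93 and 4.17 FPKM in limonin livers 1 to 6, against 11.4, 13.2, 8.84, 6.6 and 8.88 FPKM in MCD livers 1 to 5. The groups overlapped only through limonin 3, which was just above MCD 4. The mean was 52.1% lower, a log2 fold change of -0.93 ± 0.19 (adjusted p = 0.00537, limma), and all 11 fits that left out 1 library kept this call (largest adjusted p 0.0200). Psmb9, the beta1i (LMP2) subunit (chromosome 17, 34181987 to 34187764), averaged 3.23 ± 0.944 FPKM in limonin livers and 6.11 ± 2.0 FPKM in MCD livers. Its log2 fold change was -0.74 ± 0.19 (adjusted p = 0.0156, and 0.0517 without MCD 2). Psmb10, the beta2i (MECL-1) subunit, lies apart from the MHC region (chromosome 8, 105935735 to 105938444). It had 21.3, 14.3, 30.0, 24.3, 30.2 and 23.8 FPKM in limonin livers 1 to 6, against 37.3, 46.7, 35.8, 31.6 and 30.9 FPKM in MCD livers 1 to 5. It is the 1 member whose groups did not overlap, a separation found in 8.33% of all tested genes, and its margin was narrow. It fell by 0.61 ± 0.17 (adjusted p = 0.0208, and 0.0664 without MCD 2).

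None of the 3 constitutive subunits whose places they take was called in limma (1, Psmb6, at an unadjusted p under 0.05). Psmb5 (beta5) averaged 188 ± 24.7 FPKM in limonin livers and 214 ± 17.9 FPKM in MCD livers, with a log2 fold change of -0.20 ± 0.11 that was not called (adjusted p = 0.199). Psmb6 (beta1) had -0.31 ± 0.12 (adjusted p = 0.0678) and Psmb7 (beta2) 0.08 ± 0.09 (adjusted p = 0.571). After quantile normalization Psmb6 was called, at -0.31 with an adjusted p of 0.0337. Whether each immunoproteasome subunit moved otherwise than its counterpart was tested on their log2 ratio in each library, which does not depend on depth or on any factor that scales a whole library. The difference between groups (limonin minus MCD) was -0.88 ± 0.23 (SE; n = 6 and 5) for Psmb8 to Psmb5, -0.60 ± 0.24 for Psmb9 to Psmb6 and -0.71 ± 0.19 for Psmb10 to Psmb7. The exact permutation p, two-sided over all 462 assignments of the libraries, was 0.00649, 0.0281 and 0.00649, with 0.00974, 0.0281 and 0.00974 after adjustment over the 3 pairs and 0.00216 as the smallest p possible. The Psmb9 ratio lost its call without limonin 2, 4 or 6 or without MCD 1 or MCD 2, each with an adjusted p of 0.0714.

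The FPKM share of the induced form was low in the beta5 and beta1 pairs and high in the beta2 pair. Such shares do not measure how the sites of the particle are filled. The constitutive subunits themselves differed, at means of 188 (Psmb5), 76.4 (Psmb6) and 22.2 FPKM (Psmb7) in limonin livers. In FPKM, Psmb8 made up 2.41% ± 0.568 of Psmb8 and Psmb5 together in limonin livers and 4.37% ± 1.1 in MCD livers (SD, n = 6 and 5). Psmb9 made up 4.01% ± 0.768 of its pair in limonin livers and 6.1% ± 1.84 in MCD livers. Psmb10, by contrast, made up 51.3% ± 4.82 of its pair in limonin livers and 63.2% ± 5.52 in MCD livers. By transcript level, the constitutive beta5 and beta1 subunits thus exceeded their induced forms in every library of both groups, while Psmb10 held between 43.4% and 71.1% of its pair. In limonin livers 1 and 2 the Psmb10 share was 49.0% and 43.4%, below Psmb7, and in every MCD liver it was at least 56.5%.

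**Figure D3:**
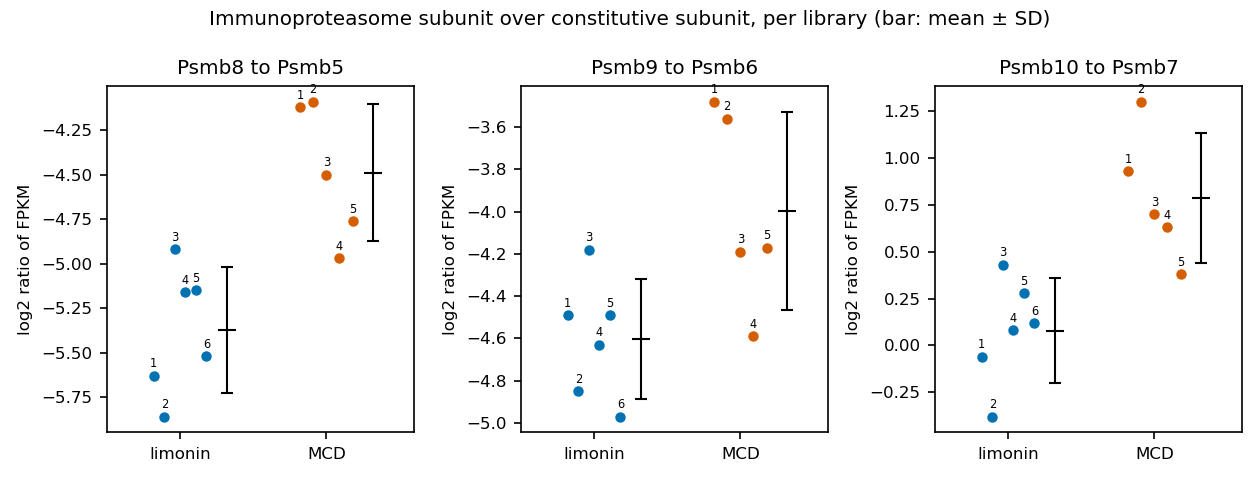
Log2 ratio of FPKM (vertical axes) of each immunoproteasome subunit to its constitutive counterpart, 1 point per library with its replicate number, and mean ± SD as bars. The ratio is lower in limonin livers by 0.88 for Psmb8 to Psmb5, by 0.60 for Psmb9 to Psmb6 and by 0.71 for Psmb10 to Psmb7, and the groups overlap most for Psmb9.

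Other parts of the proteasome were described by the same fit. Of 11 other tested subunits of the 20S core particle, 0 were called in limma (2, both higher, at an unadjusted p under 0.05), with a median of -0.07 and a range of -0.22 to 0.28. Psma4, which had the highest log2 fold change of them and was picked for it, averaged 47.3 ± 5.73 FPKM in limonin livers and 38.6 ± 3.67 FPKM in MCD livers (adjusted p = 0.054, limma). Each of the other scalings called 2 of the 11, both higher. Of 18 subunits of the 19S regulatory particle, which unfolds tagged proteins, 3 rose and 0 fell. Over all 10489 tested genes, 759 were called higher. Psmd11 rose by 0.51 ± 0.12 and was called in all 11 fits without 1 library. Psmd12 rose by 0.32 ± 0.09, lost without MCD 2 or MCD 3 (largest adjusted p 0.0741). Psmd14 rose by 0.37 ± 0.12, a call that 7 of the 11 fits lost and those without limonin 5, limonin 6, MCD 4 or MCD 5 kept (largest adjusted p 0.111). Without MCD 2 or MCD 3, 1 of the 18 was called higher, where 318 of 10294 and 506 of 10324 tested genes were. The other scalings called 5 or 6 of the 18 higher. More of all tested genes were also called higher then, at 1288 of 10477 (median-ratio), 1813 of 10489 (quantile) and 1095 of 10479 (equal summed FPKM).

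Of 10 activators and assembly factors, 1 rose and 2 fell. The 2 that fell are close to the 18.7% of all tested genes called lower. Psme1, a subunit of the PA28 activator that is induced with the immunoproteasome, averaged 40.6 ± 6.17 FPKM in limonin livers and 55.1 ± 10.4 FPKM in MCD livers. It fell by 0.43 ± 0.14 (adjusted p = 0.0348), a call that 7 of the 11 fits without 1 library lost and those without limonin 3, limonin 5, limonin 6 or MCD 4 kept (largest adjusted p 0.0990). Psme2, the partner subunit, had -0.41 ± 0.15 and was not called (adjusted p = 0.0549). Psmg4, an assembly chaperone, fell by 0.62 ± 0.16 and was called in all 11 fits without 1 library. The gene that rose, Psme4 (the PA200 activator), had 0.44 ± 0.12 and lost its call without MCD 2 (adjusted p = 0.0552). In 7 of the 11 such fits, and after median-ratio scaling or at equal summed FPKM, 1 gene of the list was called lower.

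**Figure D4:**
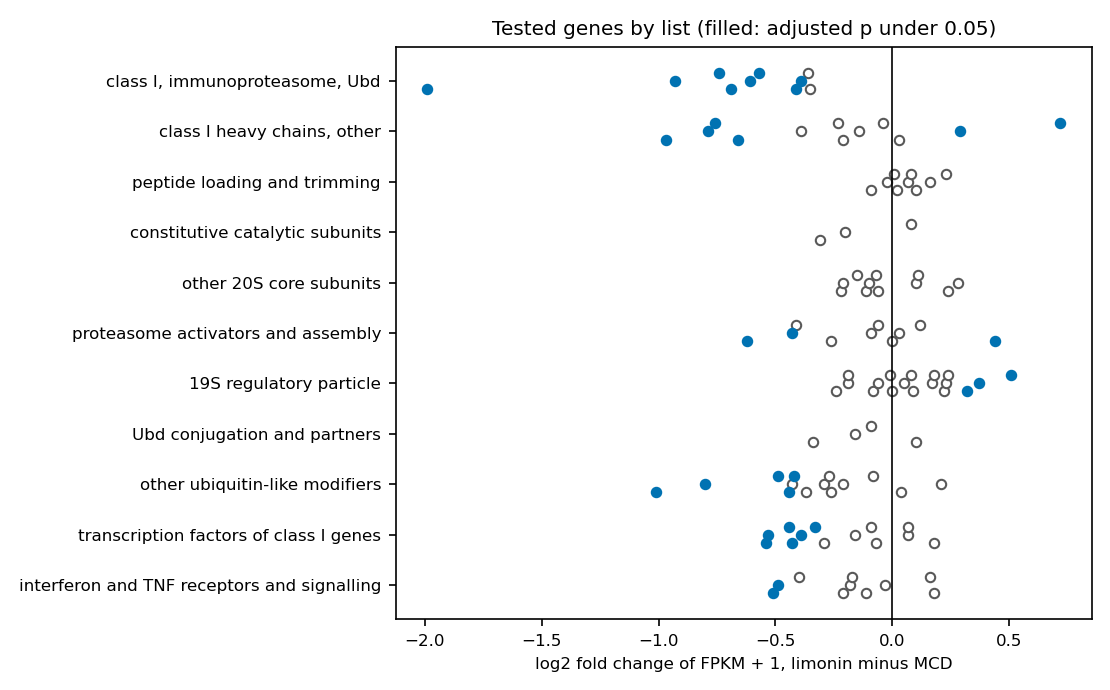
Log2 fold change of FPKM + 1 (limonin minus MCD, horizontal axis) of each tested gene, by list, with filled points at an adjusted p under 0.05. The top row of 10 genes lies left of 0, while the peptide loading list, the constitutive catalytic subunits and the other 20S subunits hold 0 called genes.

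Ubd differed most. The gene (chromosome 17, 37193892 to 37196095, 1 transcript of 931 bases in the annotation) had 3.48, 1.73, 16.9, 4.39, 4.69 and 3.52 FPKM in limonin livers 1 to 6, against 37.1, 34.4, 13.7, 9.28 and 25.9 FPKM in MCD livers 1 to 5. In 5 of 6 limonin livers it lay below every MCD liver, while limonin 3 was above MCD 3 and MCD 4. The implied number of fragments behind these values was 31 to 309 in limonin livers and 164 to 640 in MCD livers. The mean was 76.0% lower, and the log2 fold change was -1.99 ± 0.49 (adjusted p = 0.0165, limma). Without MCD 2 the adjusted p was 0.0521, and without limonin 3 the log2 fold change was -2.33 with an adjusted p of 0.00257.

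The Ubd window (chr17:37193642-37193941, plus strand, GRCm38.p6) is printed because NF-kappaB and TNF are known to drive this gene.
Ubd: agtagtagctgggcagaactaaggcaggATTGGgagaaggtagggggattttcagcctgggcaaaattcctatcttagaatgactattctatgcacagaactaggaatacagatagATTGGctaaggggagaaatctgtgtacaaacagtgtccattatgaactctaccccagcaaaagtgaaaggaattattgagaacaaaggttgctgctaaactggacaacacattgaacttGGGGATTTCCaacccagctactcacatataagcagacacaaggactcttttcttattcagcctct
It holds a kappaB match at -15, close to the start site, and CCAAT boxes at -222 and -134, with no match to the ISRE core or the STAT site as spelled here. Of 4 tested genes known to conjugate or bind the Ubd protein, 0 were called in limma (1, Sqstm1, at an unadjusted p under 0.05), also under the other 3 scalings. Ube2z, its conjugating enzyme, had a log2 fold change of 0.10 ± 0.11, Nub1, which speeds its turnover, -0.09 ± 0.11, and Sqstm1, an autophagy receptor, -0.34 ± 0.14 (adjusted p = 0.0867). Uba6, its activating enzyme, was under the filter at 0.275 ± 0.0785 FPKM in limonin livers and 0.312 ± 0.0763 FPKM in MCD livers. Without limonin 3, 1 of the 4 was called lower. These 4 genes were picked with their values in view.

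Among 14 other tested ubiquitin-like modifiers and their enzymes, 5 fell and 0 rose, where 18.7% of all tested genes were called lower. The interferon-induced Isg15 averaged 14.0 ± 4.05 FPKM in limonin livers and 28.7 ± 6.15 FPKM in MCD livers, a log2 fold change of -1.01 ± 0.19. Usp18, which removes Isg15 from proteins, fell by 0.80 ± 0.12 and Uba7, which activates it, by 0.49 ± 0.12. For these 3 genes all 6 limonin livers were below all 5 MCD livers, a separation found in 8.33% of all tested genes. All 11 fits without 1 library kept the call of each. Nedd8 fell by 0.44 ± 0.13, lost without MCD 2 or MCD 5 (largest adjusted p 0.0612). Without MCD 2, without MCD 5, or at equal summed FPKM, 3 of the 14 were called lower.

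The 10 genes shared their high and low libraries. MCD 2 was the highest of all 11 libraries for 8 of them and MCD 1 for the other 2. Limonin 2 was the lowest library for 7, limonin 1 for 2 and limonin 4 for 1. Within the MCD group, MCD 4 was lowest for 9 of 10 genes, and within the limonin group the highest was limonin 3 for 6 genes and limonin 5 for 4. The same few libraries thus held the extremes of all 10 genes. How often they held the extremes over all tested genes was not counted. Limonin 2 and MCD 2 were also the least alike pair of libraries over all tested genes (Pearson correlation of 0.922), so this need not be particular to the 10.

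**Figure D5:**
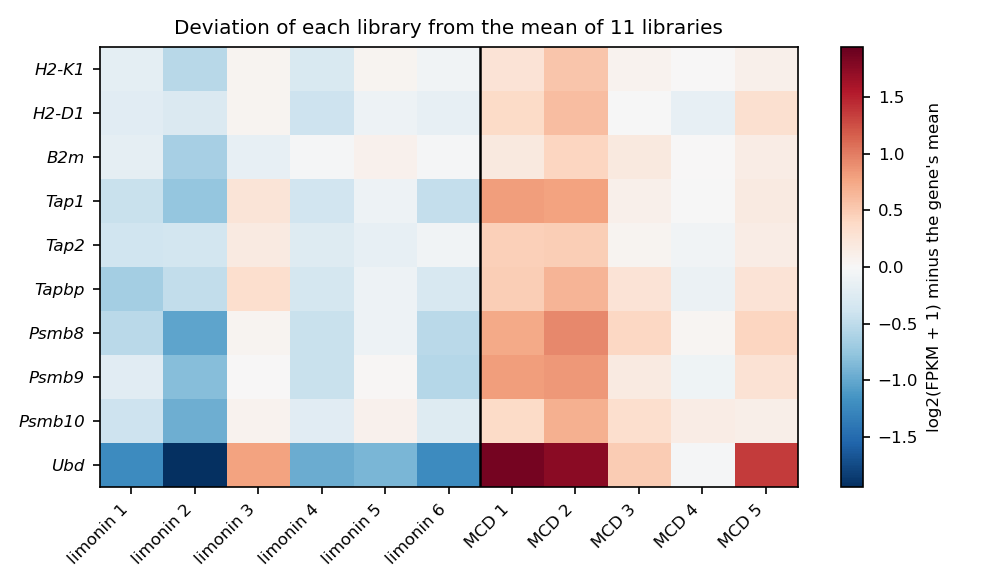
Log2(FPKM + 1) of each gene minus its mean over the 11 libraries, limonin libraries left of the line and MCD libraries right of it, red for higher and blue for lower. MCD 1 and MCD 2 are red and limonin 2 is blue in all rows, and limonin 3 is red for Ubd, at 16.9 FPKM.

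Of 12 other tested class I heavy chains, 4 fell, 2 rose and 6 were not called, with a median of -0.22. Among all 10489 tested genes, 18.7% were called lower and 759 were called higher. Of the 4 that fell, 3 of the H2-Q region were called in all 11 fits without 1 library. H2-Q6 averaged 13.5 ± 3.51 FPKM in limonin livers and 27.5 ± 7.67 FPKM in MCD livers, a log2 fold change of -0.97 ± 0.20 (adjusted p = 0.00588, limma). The other, H2-Q1, fell by 0.76 ± 0.23 and lost its call without MCD 1, 2, 3 or 5. H2-Q7 fell by 0.66 ± 0.15 and H2-Q4 by 0.79 ± 0.20. In H2-Q4, H2-Q6 and H2-Q7 every limonin liver was below every MCD liver, as in 8.33% of all tested genes. H2-Q10, whose product hepatocytes secrete, stood at 576 ± 54.4 FPKM in limonin livers and 567 ± 63.2 FPKM in MCD livers, with a log2 fold change of 0.03 ± 0.11 (-0.05 after quantile normalization). Cd1d1, a class I-like molecule that presents lipids to NKT cells, rose. It ran from 64.8 to 118 FPKM with a median of 98.9 in limonin livers and from 40.1 to 67.0 FPKM with a median of 58.8 in MCD livers, a log2 fold change of 0.72 ± 0.16 that held in all 11 fits without 1 library. Hfe, an iron regulator, rose by 0.29 ± 0.10, a call kept only without limonin 4 or limonin 5 (largest adjusted p 0.115). H2-Q1, H2-Q10 and Hfe were picked with their values in view.

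Of 13 tested transcription factors that act on class I genes, 6 fell and 0 rose, where 18.7% of all tested genes were called lower. The count was 1 without MCD 2 or at equal summed FPKM, 2 without MCD 1 or limonin 2, and 3 without limonin 4, limonin 5, limonin 6 or MCD 5. Irf9, a subunit of the interferon-activated complex ISGF3, fell by 0.54 ± 0.13 and was called in all 11 fits without 1 library. Irf1, which interferon gamma induces, averaged 8.62 ± 1.21 FPKM in limonin livers and 12.1 ± 2.5 FPKM in MCD livers. It fell by 0.43 ± 0.13 (adjusted p = 0.0254, lost without MCD 1, MCD 2 or limonin 2, largest 0.0642). Every limonin liver was below every MCD liver for Irf1, as in 8.33% of all tested genes. Rfxank, a subunit of the RFX complex on MHC promoters, fell by 0.39 ± 0.11 (0.0725 without MCD 2). Rela, the NF-kappaB subunit p65, fell by 0.44 ± 0.14, a call that 8 of the 11 fits lost (largest adjusted p 0.109) and those without limonin 3, MCD 3 or MCD 4 kept. Nlrc5, the transactivator of class I genes, had -0.29 ± 0.15 and was not called (adjusted p = 0.160).

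The main cytokines that induce the pathway were under the filter. Ifng, interferon gamma, was listed at 0 in 5 of 6 limonin livers and 3 of 5 MCD livers, with at most 0.0365 FPKM in limonin livers and 0.0466 FPKM in MCD livers. Tnf had 0.457, 0.324, 0.926, 0.586, 0.484 and 0.126 FPKM in limonin livers 1 to 6, against 2.09, 2.34, 0.991, 1.17 and 2.52 FPKM in MCD livers 1 to 5. Of 10 tested genes of interferon and TNF signalling, 6 were receptor chains and the others kinases or an inhibitor. Of the 10, 2 fell and 0 rose, close to the 18.7% of all tested genes called lower. Tnfrsf1b (a TNF receptor) fell by 0.49 ± 0.13 and Ifngr1 (a chain of the interferon gamma receptor) by 0.51 ± 0.14. Without MCD 2, 0 of the 10 were called in limma (3 at an unadjusted p under 0.05). The adjusted p of Tnfrsf1b and Ifngr1 was then 0.0547 and 0.0540. At equal summed FPKM 0 were called, with 2 at an unadjusted p under 0.05.

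Markers of several immune and non-parenchymal cells moved with the 10 genes, and their part in these results was not tested. For the marker counts below, 18.7% of all 10489 tested genes were called lower and 759 were called higher. The summed FPKM of 13 MHC class II and dendritic cell markers ran from 90.9 to 207 in limonin livers and from 211 to 695 in MCD livers, and 8 of 8 tested were called lower. Ccr7, 1 of the 8, was under 1 FPKM in every limonin liver and passed the filter through the MCD livers alone; the other 7 were called in all 11 fits without 1 library. For 12 markers of recruited macrophages and monocytes the sum ran from 94.7 to 212 in limonin livers and from 188 to 733 in MCD livers, with 8 of 9 tested lower, but 2 without MCD 2 and 5 without MCD 1 or limonin 2. For 12 Kupffer cell markers it ran from 136 to 207 in limonin livers and from 171 to 508 in MCD livers, with 4 of 10 lower (2 without MCD 2) and 1, Slc40a1, higher. The 4 were C1qa, C1qb, C1qc and Csf1r. The 5 not called were Clec4f, Vsig4, Cd5l, Marco and Adgre1, with log2 fold changes of -0.20, 0.01, -0.29, -0.73 and -0.38. Of 18 T and NK cell markers 4 were tested and 3 fell, with sums of 6.66 to 13.1 FPKM in limonin livers and 14.1 to 32.0 FPKM in MCD livers. Cd8a, the co-receptor that reads class I molecules, was between 0.0804 and 0.324 FPKM in limonin livers and between 0.152 and 0.332 FPKM in MCD livers. Stellate cell markers ran from 54.8 to 76.1 FPKM in limonin livers and from 88.3 to 169 FPKM in MCD livers, with 8 of 10 lower, and cholangiocyte markers from 39.1 to 106 FPKM in limonin livers and from 91.4 to 435 FPKM in MCD livers, with 7 of 8 lower. Spp1, which is in both the cholangiocyte and the recruited macrophage lists and was called lower, made up much of the cholangiocyte sum, with 15.7 to 63.2 FPKM in limonin livers and 52.3 to 353 FPKM in MCD livers. Without Spp1 the cholangiocyte sum ran from 23.5 to 43.2 FPKM in limonin livers and from 39.2 to 82.0 FPKM in MCD livers, and the recruited macrophage sum from 62.7 to 149 FPKM in limonin livers and from 136 to 607 FPKM in MCD livers. B cell markers ran from 15.6 to 46.7 FPKM in limonin livers and from 36.3 to 87.6 FPKM in MCD livers, with 5 of 5 tested lower, but 2 without limonin 4, limonin 6, MCD 2, MCD 3 or MCD 4 and 3 without limonin 1, limonin 3 or MCD 5. With median-ratio scaling or at equal summed FPKM 2 of the 5 were called, and with quantile normalization 3. Neutrophil markers ran from 4.41 to 8.69 FPKM in limonin livers and from 6.02 to 38.7 FPKM in MCD livers, with 3 of 4 tested lower, 1 without MCD 1 or MCD 5, and in limma 0 of 3 tested without MCD 2 (3 at an unadjusted p under 0.05). Hepatocyte markers, which check the tissue label, ran from 43711 to 63158 FPKM in limonin livers and from 40263 to 48389 FPKM in MCD livers, with 7 of 18 higher. Endothelial markers ran from 43.3 to 59.0 FPKM in limonin livers and from 39.7 to 77.0 FPKM in MCD livers, with Kdr called higher (kept only without limonin 5, MCD 3 or MCD 4) and Eng called lower (kept only without limonin 1, MCD 1 or MCD 4, and under none of the other 3 scalings). Of all tested markers, 10 reached 1 FPKM in at most 2 limonin livers and so passed the filter mainly through the MCD livers. They were Cd79a, Cd79b and Jchain (B and plasma cell), Trac and Trbc1 (T and NK cell), Csf3r and Retnlg (neutrophil), Ccr7, Ly6c2 and Muc1. The lower counts of the first 3 lists thus rest partly on the filter. Of their other tested markers, 2 of 2 B and plasma cell, 2 of 2 T and NK cell and 1 of 2 neutrophil markers were called lower. None of the listed markers was at 0 in all 11 libraries.

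Genes with profiles most like those of 3 members were sought by the root mean square difference of log2(FPKM + 1) over the 11 libraries, each gene centred on its own mean, among 9630 tested genes, members and predicted genes left out. Closest to Ubd were Cldn4, a tight junction claudin (0.37), S100a11, a calcium-binding protein (0.40), Eln, which encodes elastin (0.44), and Lgals3, which encodes galectin-3 (0.44). Cldn4 averaged 1.54 ± 2.08 FPKM in limonin livers and 6.48 ± 3.59 FPKM in MCD livers. Closest to Psmb8 were H2-Q6, Cystm1, Tubb5 and Blnk, each at 0.14, and closest to H2-K1 were Mapre3 (0.07), Mri1 (0.07), Prmt1 (0.08) and the interferon-induced Ifi35 (0.09). The measure includes the difference between groups, so it describes a shared pattern only.

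The authors' deposited table marked 4 of the 10 genes as significantly lower, with 6.92% of its 31280 rows so marked. In the authors' deposited table the fold change (limonin over MCD) and q were 0.479 and 0.00088 for Psmb8, 0.24 and 0.00668 for Ubd, 0.528 and 0.0094 for Psmb9, and 0.563 and 0.0192 for Tap1. Its q for the other 6 ran from 0.0897 for Psmb10 to 0.555 for B2m. The 4 marked there are also called in the fit above.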

How the data were processed

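Poly(A) RNA of 11 livers (6 limonin, 5 MCD) was sequenced after strand marking with dUTP, per the labels' protocols. The submitters' processing notes name cutadapt 1.9, HISAT2 2.0.4, StringTie 1.3.4d and a human build (GRCh38), while the gene identifiers are mouse. Per the file headers, the values deposited by the authors are FPKM for every gene in each library. Per the file headers, there is also the authors' fold change, a ratio of means, with the log2 of it, a p-value and a q-value; the sources used here do not name that test. Without counts no count model was fitted, and depth was only implied, by taking the commonest low FPKM-by-length product of 1-transcript genes as 1 fragment.

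The values tested were log2(FPKM + 1), a scale on which changes of low genes are understated. A gene was tested if 5 or more libraries had 1 FPKM or more (10489 of 31280), which the MCD group could meet alone; fits without libraries applied this filter anew. The comparison used limma 3.58.1 (R 4.3.3) with trend and robust options, two-sided, with a Benjamini-Hochberg threshold of 0.05, and exact permutation for the subunit ratios. Each library is 1 mouse, so p-values measure the spread between mice. The procedure was tested on simulated data. Gene positions are from GENCODE M21 (GRCm38) and promoters from RefSeq.

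The members, lists and tests were chosen with earlier results of these data known. Named from each pathway list were up to 4 called genes with the smallest p, plus 12 genes fixed by name, of which 1 is not reported here; other names are marked in the text. Of marker lists, counts and sums are given. Alternatives changed the filter, pseudocount, scaling, trend, weights, replicate block and libraries; leaving out MCD 1 and 2 together, the counts of lists under other scalings and the marker sums without Spp1 were added after seeing the data.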

Additional observations from a re-analysis of the deposited data

Results flagged for a closer look

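Of 26 sets of values checked (the 10 genes and 3 subunit ratios in each group), 1 held a library far from the others. Ubd stood at 16.9 FPKM in limonin 3, and its gap to the next limonin liver was 0.805 of the whole range of the group, against a critical value of 0.625 for 6 samples. Chance flags about 1 in 20 such sets.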

How the results depend on the processing

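All 10 genes kept a log2 fold change below 0 under every alternative run, from Ubd at -2.33 without limonin 3 to B2m at -0.13 after quantile normalization. Of 249 alternative values of the 10 genes, 188 stayed on their side of the threshold, 56 lost the call and 5 gained one. Of the 188, 22 belong to H2-K1 and 23 to B2m, which were not called in the first place. Of the 10 genes, 2 (Psmb8 and Ubd) were called with no filter, 5 at equal summed FPKM and 4 by the authors' deposited q. Leaving out 1 library gave 1 to 9. Without both MCD 1 and 2, 0 were called (limma), with 5 at an unadjusted p under 0.05. Psmb9 was under the filter at 5 FPKM. All genes called numbered 1424 at that filter, 1734 without MCD 4 and 5, 270 without MCD 1 and 2, 5010 by the authors' q, and 1314 to 3051 without 1 library, against 2716.

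The ratio differences without 1 library ran from -1.0 to -0.78 (Psmb8 to Psmb5), from -0.75 to -0.47 (Psmb9 to Psmb6) and from -0.81 to -0.58 (Psmb10 to Psmb7). Without MCD 1 and 2 they were -0.63, -0.28 and -0.49, none called. The exact permutation p was then 0.0357, 0.19 and 0.0476, with 0.0714, 0.19 and 0.0714 after adjustment. Without limonin 5 and 6 the Psmb9 ratio, at -0.54, was not called. Fewer libraries also raise the smallest p possible, to 0.0119 without MCD 1 and 2. The cause of the other changes was not tested.

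Libraries share replicate numbers. Correlations of their deviations ran from -0.235 to 0.204 for same-numbered libraries and from -0.355 to 0.266 for the others. Weak correlations cannot exclude a pairing, so whether the numbers pair the libraries is not known. With the replicate number as a block, 1256 genes and 1 of the 10 (Psmb8) were called, and the ratio differences were -0.85, -0.53 and -0.72, where the exact test of 5 pairs cannot go below 0.0625. Low FPKM limit Ubd, Psmb8, Psmb9 and Tap1 in limonin livers.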
